A study of Mus musculus with 70 samples.

Results

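The genes described here are 8 of the 55487 named genes in the count tables, and they make or sense prostaglandins and leukotrienes: the cyclooxygenase genes Ptgs1 and Ptgs2, the noncoding gene Ptgs2os2 beside Ptgs2, the prostaglandin E synthase gene Ptges, the prostaglandin E2 receptor genes Ptger2 and Ptger4, and the 5-lipoxygenase genes Alox5 and Alox5ap. The members were chosen by their symbols, and they were selected on values of these same tables, namely their levels on both days in control tumors, histotripsy-treated tumors and histotripsy-abscopal tumors. Differences between those groups and days are therefore given for the members as a description. Where a call or a count of calls is given for a member in these contrasts, it describes the fit over all genes and is no independent test of the member. The comparison of the sorted fractions, the genes that vary with the members and the other genes of the pathway did not enter the choice.

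RNA was sequenced from CD45+ and CD45- cells that were flow-sorted from B16F10 tumors, a mouse melanoma line that was implanted subcutaneously on the 2 flanks of male and female C57BL/6 mice, bought at 6 to 8 weeks of age. Control tumors received sham ablation, histotripsy-treated tumors received partial mechanical ablation by focused ultrasound, and histotripsy-abscopal tumors were the tumors of the opposite flank that were left untreated. On day 3 after ablation there were 4 control, 6 treated and 7 abscopal CD45+ libraries and 4, 7 and 7 CD45- libraries, and on day 7 there were 10, 3 and 4 CD45+ libraries and 11, 3 and 4 CD45- libraries. All tumors came from 1 transplanted cell line, the sex of a mouse and the sequencing run are not known for a library, and the labels do not say whether a treated and an abscopal library came from the same mouse or whether a library is 1 mouse. If libraries of a group share an animal, p-values measure only the spread between these libraries, which may be technical.

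Total counts ranged from 887798 to 3820705 per library, and levels are given as CPM, the count of a gene scaled to the total count of its library. QuantSeq reads the 3′ end of each transcript, so that counts of different genes do not scale with transcript length. Ptprc, which encodes CD45, had 929 to 2916 counts in every CD45+ library and 0 to 3 counts in every CD45- library. The melanoma markers summed to between 23402 and 36892 CPM in CD45- libraries. In CD45+ libraries they summed to between 91.5 and 2278 CPM, with the highest values in day 3 abscopal replicates 4 (2278 CPM) and 1 (1169 CPM). Among the day 3 treated CD45+ libraries, replicate 3 stood apart with 27060 CPM of neutrophil markers, while the other 5 had between 1375 and 7991 CPM.

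Prostaglandins and leukotrienes are lipid signals made from arachidonic acid, which phospholipases release from membranes. Cyclooxygenases turn it into the common prostaglandin precursor, and terminal synthases such as the one encoded by Ptges finish prostaglandin E2, which raises cyclic AMP in cells that carry the receptors encoded by Ptger2 and Ptger4. In the other branch, 5-lipoxygenase works with its membrane partner, the 5-lipoxygenase activating protein encoded by Alox5ap, to make leukotrienes that attract and activate granulocytes and other immune cells. Ptgs1 is the cyclooxygenase gene of platelets and many resting tissues, and Ptgs2 is the form that myeloid cells switch on during inflammation.

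Ptgs2 (ENSMUSG00000032487.8, GRCm38 chromosome 1, 150100031 to 150108227, plus strand) and Ptgs2os2 (ENSMUSG00000097754.1, a lincRNA gene, chromosome 1, 150159043 to 150164948, minus strand) are neighbors that point at each other, separated by 50.8 kb, and neither overlaps another annotated gene. Because this pair did not vary in proportion across the CD45+ libraries, as described below, their promoters are shown, as RefSeq gives them for GRCm38.p6 from 250 bases before the annotated start to 50 bases after it. They lie at chr1:150099781-150100080 on the plus strand and chr1:150164899-150165198 on the minus strand, and capitals mark the matches to 3 short motifs.
Ptgs2: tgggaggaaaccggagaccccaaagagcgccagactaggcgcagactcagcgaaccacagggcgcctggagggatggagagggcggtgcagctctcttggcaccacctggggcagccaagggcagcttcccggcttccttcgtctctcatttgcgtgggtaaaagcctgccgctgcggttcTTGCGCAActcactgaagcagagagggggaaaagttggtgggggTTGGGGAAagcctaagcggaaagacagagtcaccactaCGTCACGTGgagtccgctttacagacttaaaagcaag
Ptgs2os2: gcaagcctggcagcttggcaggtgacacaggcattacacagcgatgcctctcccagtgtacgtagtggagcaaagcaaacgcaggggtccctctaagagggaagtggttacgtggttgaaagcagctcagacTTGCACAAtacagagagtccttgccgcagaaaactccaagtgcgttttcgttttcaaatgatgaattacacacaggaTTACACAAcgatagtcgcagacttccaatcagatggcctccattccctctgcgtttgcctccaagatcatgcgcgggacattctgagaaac
The motifs searched were TATAAA on the gene's strand, and on both strands TGACG (the half-site of the cyclic AMP response element), CACGTG (an E-box), TGANTCA (AP-1), TTNNGNAA (C/EBP) and the NF-kB consensus. The Ptgs2 window held 1 TGACG match on the opposite strand that overlaps 1 E-box, and C/EBP matches at 2 places. The Ptgs2os2 window held C/EBP matches at 2 places and none of the other letters. Of 32851 RefSeq promoter windows of the same length, 40.7% held the C/EBP letters, 20.8% TGACG, 7.15% CACGTG, 7.81% the AP-1 letters, 8.32% TATAAA and 4.51% the NF-kB consensus, so a C/EBP match is common and is given as a description of the letters only. Of the 7 members with a promoter entry, Ptges and Ptger2 also held C/EBP letters, and Ptgs1, Ptger4 and Alox5 held none of the letters searched.

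In CD45+ cells on day 3, the treated tumors stood above the control tumors for Ptgs1, Ptgs2os2, Alox5 and Alox5ap, while Ptgs2, Ptges, Ptger2 and Ptger4 overlapped. Folds are log2 fold changes from edgeR with their SE, relative to TMM scaling, and a gene is called where its p, adjusted over all genes tested by the Benjamini-Hochberg method, is under 0.05. Of the members, 7 of 8 passed the filter on low counts and 4 were called, all 4 higher in treated tumors. Over all 10264 genes tested, 7.8% were called and 6.22% were called as higher, 638 genes higher and 163 lower. Under scaling by library totals alone the median fold of all genes was -0.23, and 414 genes were called as higher and 663 as lower. These contrasts belong to those that chose the members, so nothing is read from the count. In bulk libraries, fewer cells of a type and less RNA per cell cannot be told apart.

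**Figure D1:**
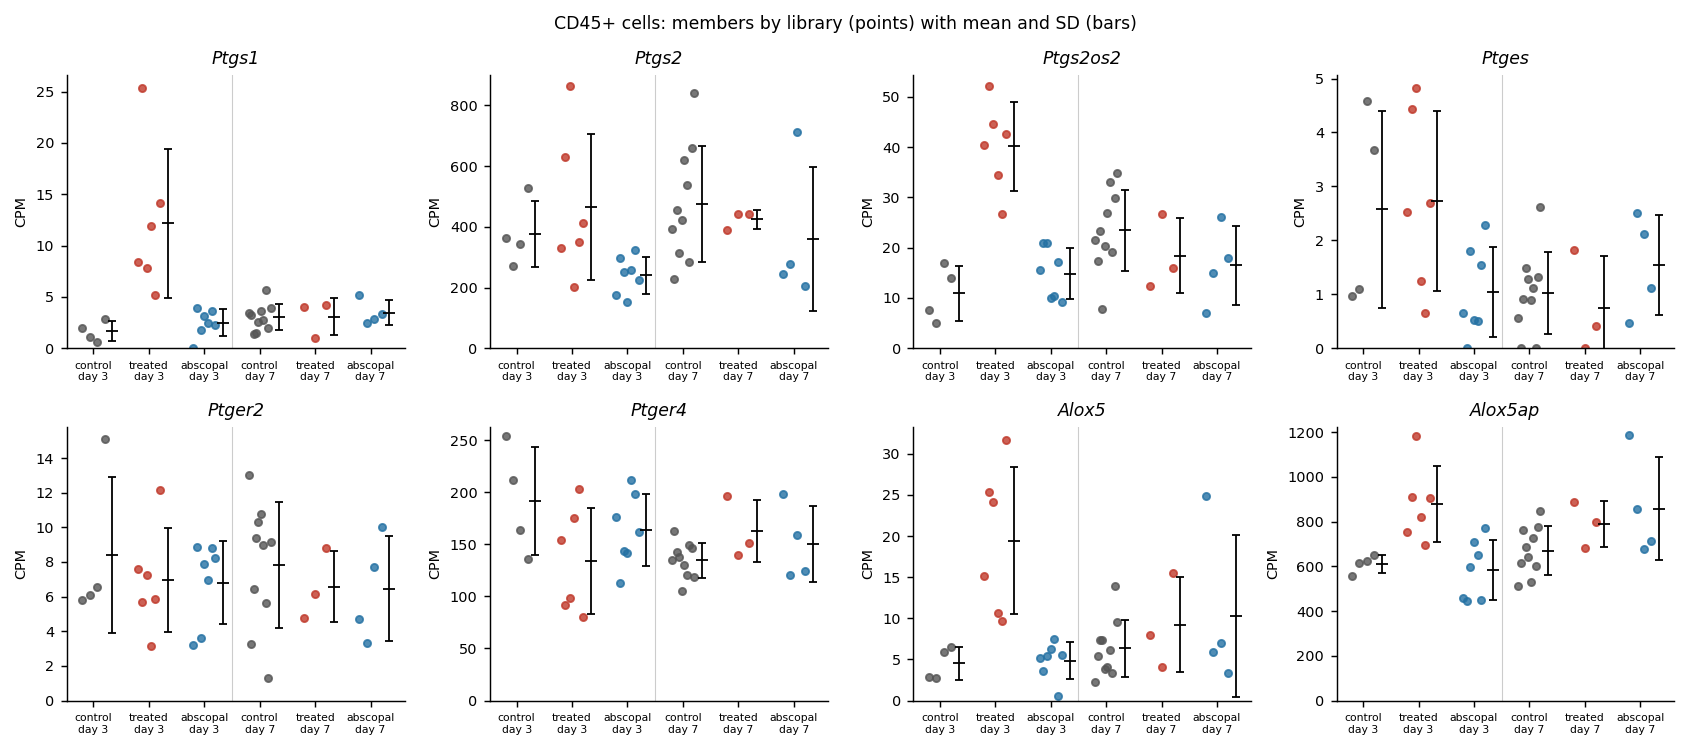
CPM of the 8 members in each CD45+ library (points), by group and day, with the mean and SD of the group beside them as a bar, cut at 0 where it would fall below. On day 3 every treated library lies above every control library for Ptgs1, Ptgs2os2, Alox5 and Alox5ap.

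Of the cyclooxygenase genes, Ptgs1 (ENSMUSG00000047250.13, chromosome 2, 36230426 to 36252272, plus strand) was low throughout. Its level was 1.93, 1.10, 0.654 and 2.86 CPM in the 4 control libraries of day 3. In the 6 treated libraries it ranged from 5.19 to 25.4 CPM with a median of 10.2 CPM, on counts of 8 to 40. In the 7 abscopal libraries it ranged from 0 to 3.89 CPM with a median of 2.49 CPM. Every treated library thus lay above every control and every abscopal library, and control and abscopal libraries overlapped. The fold of treated over control tumors was 3.01 ± 0.55 and that of treated over abscopal tumors 2.34 ± 0.41, whereas abscopal over control tumors gave 0.67 ± 0.62.

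Ptgs2 was more than an order of magnitude more abundant and followed another pattern. It stood at 361.9, 270.1, 342.8 and 529.3 CPM in the control libraries. Treated libraries ranged from 202.2 to 864.5 CPM (median 382 CPM), and abscopal libraries from 151.9 to 322.6 CPM (median 250.9 CPM). Treated libraries lay on both sides of the controls, with 2 of 6 above every control, whereas 5 of 6 lay above every abscopal library. The fold was 0.59 ± 0.34 for treated over control, which was not called, 1.14 ± 0.29 for treated over abscopal, which was called, and -0.55 ± 0.32 for abscopal over control, which was not. The 2 comparisons with treated tumors leaned on 1 library: without treated replicate 3 they gave 0.21 ± 0.28 and 0.76 ± 0.24, and the second was no longer called. It was also no longer called without treated replicate 2 or with a replicate block (fold 1.02).

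Ptgs2os2, the noncoding neighbor, was at 7.70, 4.96, 17.0 and 13.9 CPM in control libraries. It ranged from 26.6 to 52.1 CPM (median 41.5 CPM) in treated libraries and from 9.16 to 20.9 CPM (median 15.5 CPM) in abscopal libraries. No treated library overlapped a control or an abscopal library. Folds were 2.10 ± 0.33 over control and 1.59 ± 0.26 over abscopal, and abscopal over control gave 0.51 ± 0.33. The folds were nearly the same without treated replicate 3, at 1.996 ± 0.33 and 1.49 ± 0.27.

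The count ratio of the 2 neighbors shows the difference directly, since it does not depend on library size or scaling. For every 100 counts of Ptgs2 there were 2.13, 1.84, 4.96 and 2.62 counts of Ptgs2os2 in the control libraries of day 3. The 6 treated libraries had 5.16 to 17.0 (median 9.27), and the 7 abscopal libraries had 4.07 to 8.79 (median 6.60). All treated libraries lay above all controls, and the abscopal libraries overlapped both. On day 7 the groups overlapped, with 2.52 to 7.55 (median 4.97) in 10 controls, 3.20, 6.03 and 3.62 in treated tumors and 2.87, 5.41, 3.65 and 8.65 in abscopal tumors.

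**Figure D2:**
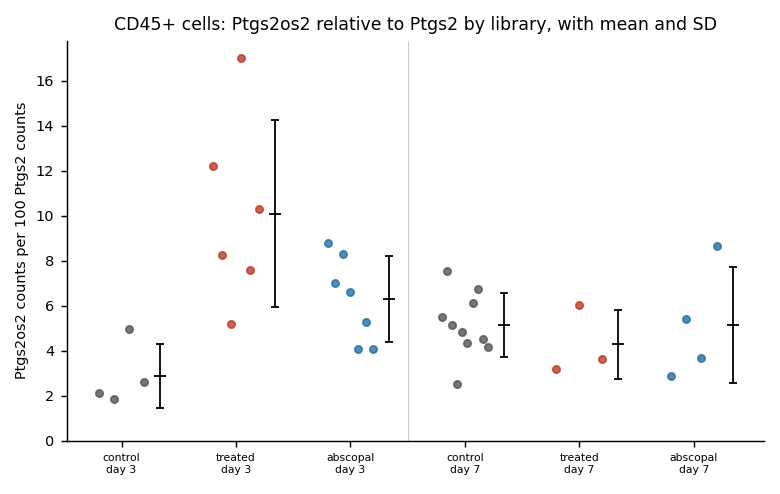
Counts of Ptgs2os2 per 100 counts of Ptgs2 in each CD45+ library (points), by group and day, with mean and SD. The day 3 controls sit between 1.84 and 4.96, and the 6 treated libraries of that day sit between 5.16 and 17.0.

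Ptges (ENSMUSG00000050737.13, chromosome 2, 30889471 to 30929863, minus strand), the inducible prostaglandin E synthase gene, had only 0 to 9 counts in any CD45+ library and passed the filter in no comparison between treatment groups. Its level was 0.963, 1.10, 4.58 and 3.68 CPM in day 3 controls. It ranged from 0.649 to 4.82 CPM in treated libraries and from 0 to 2.29 CPM in abscopal libraries. The 3 groups overlapped, and a difference was not detectable at this depth. Gm13400 overlaps Ptges on the same strand and had 1 count over all libraries.

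The receptor genes did not separate the groups. Ptger2 (ENSMUSG00000037759.6, chromosome 14, 44988195 to 45003820, plus strand) was at 5.78, 6.07, 6.54 and 15.1 CPM in control libraries. Treated libraries had 3.13 to 12.2 CPM (median 6.54 CPM) and abscopal libraries 3.23 to 8.85 CPM (median 7.91 CPM). All groups overlapped, and the folds were -0.12 ± 0.37 for treated over control and -0.22 ± 0.35 for abscopal over control. Without control replicate 4, the library at 15.1 CPM, both changed sign, to 0.39 and 0.28. Ptger4 (ENSMUSG00000039942.15, chromosome 15, 5206661 to 5244187, minus strand), the more abundant receptor gene, was at 254.1, 211.7, 164.2 and 136 CPM in control libraries. Treated libraries had 80.3 to 203 CPM (median 126.6 CPM) and abscopal libraries 112.9 to 211.3 CPM (median 162.1 CPM). The groups overlapped here too, with folds of -0.32 ± 0.23 and -0.13 ± 0.22 over control. Ptger4 overlaps Ttc33 on the other strand, and since the strand setting of the counting is not given in the sources used here, reads of the pair may not be told apart.

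In the 5-lipoxygenase branch, the treated tumors were high for both genes. Alox5 (ENSMUSG00000025701.12, chromosome 6, 116410077 to 116461178, minus strand), the enzyme, was at 2.89, 2.76, 5.89 and 6.54 CPM in control libraries. Treated libraries ranged from 9.73 to 31.7 CPM (median 19.6 CPM) on counts of 15 to 47, and abscopal libraries from 0.517 to 7.46 CPM (median 5.43 CPM). No treated library overlapped either other group. The folds were 2.29 ± 0.45 over control and 2.17 ± 0.37 over abscopal, beside 0.11 ± 0.49 for abscopal over control. Alox5ap (ENSMUSG00000060063.9, chromosome 5, 149264767 to 149288153, plus strand), its partner, was the most abundant member, at 557.3, 612.5, 622.1 and 652.3 CPM in control libraries. Treated libraries had 697.3 to 1183 CPM (median 863.4 CPM) and abscopal libraries 442.8 to 769.8 CPM (median 595.9 CPM). Treated libraries all lay above the controls, by a small margin, and 4 of 6 lay above every abscopal library. The folds were 0.78 ± 0.21 over control, 0.76 ± 0.18 over abscopal and 0.02 ± 0.20 for abscopal over control. The call over control depended on the fit: it was lost without any 1 of the 4 control libraries, when only the 2 groups compared were fitted, and under scaling by library totals alone, where the fold was 0.52.

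Against abscopal tumors, 5 of the 7 members tested were called on day 3, all higher in treated tumors, beside 5.44% of all genes called and 4.87% called as higher. Between abscopal and control tumors 0 of 7 members was called by edgeR or by DESeq2, and 0 had an unadjusted p under 0.05. Over all genes that comparison called 0%, with 796 genes at an unadjusted p under 0.05 and 10 called by DESeq2. The treated and abscopal comparisons share their control libraries.

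**Figure D3:**
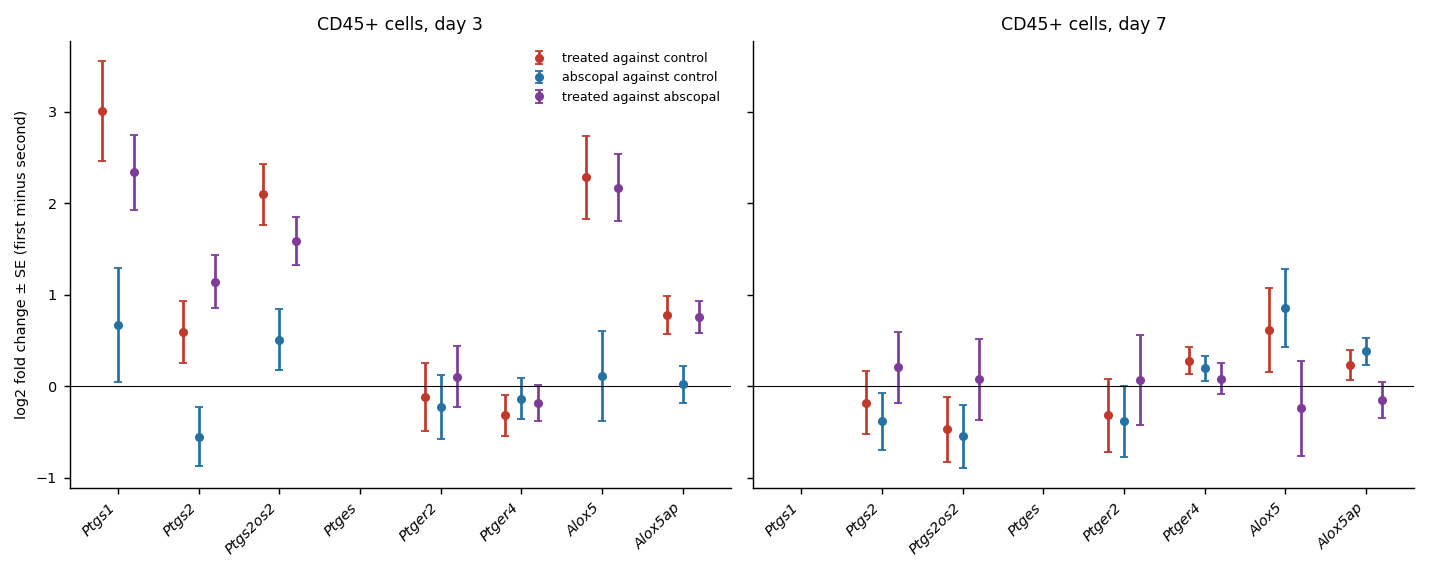
Log2 fold change with SE (edgeR, TMM scaling) of the members that passed the filter on low counts in CD45+ cells, for 3 comparisons on day 3 (left) and day 7 (right). On day 3 the folds of Ptgs1, Ptgs2os2 and Alox5 in treated tumors lie between 1.59 and 3.01, and on day 7 no fold exceeds 0.86 in size.

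On day 7 the same genes no longer separated the CD45+ groups. Ptgs1 was at 4.02, 1.03 and 4.21 CPM in treated and 5.17, 2.504, 2.81 and 3.35 CPM in abscopal libraries, against 1.38 to 5.63 CPM (median 3.02 CPM) in 10 controls. Ptgs2os2 was at 12.4, 26.7 and 16.0 CPM in treated and 7.06, 15.03, 26.0 and 17.9 CPM in abscopal libraries, against 7.89 to 34.9 CPM (median 22.5 CPM) in controls. Alox5 was at 8.03, 4.11 and 15.6 CPM in treated and 24.9, 5.84, 7.03 and 3.35 CPM in abscopal libraries, against 2.27 to 13.9 CPM (median 5.79 CPM) in controls. Within each of the 3 genes all groups overlapped.

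Ptgs2 was at 388, 443.3 and 441.9 CPM in treated and 245.5, 278, 713 and 206.4 CPM in abscopal libraries of day 7, against 229.5 to 839.5 CPM (median 438.2 CPM) in controls. Alox5ap was at 885.4, 681.8 and 796.4 CPM in treated and 1186, 855.7, 676.5 and 714.1 CPM in abscopal libraries, against 511.9 to 849.1 CPM (median 663.1 CPM) in controls. For Alox5ap, 2 of 4 abscopal libraries and 1 of 3 treated libraries lay above every control. Its folds over control were 0.23 ± 0.17 and 0.38 ± 0.15. For Alox5 the fold of abscopal over control, 0.86 ± 0.43, became -0.13 without abscopal replicate 1, the library at 24.9 CPM. The receptors gave folds between -0.38 and 0.28 over control, and Ptges had 0 to 6 counts in every library. Of 6 members tested, 0 was called in any of the 3 comparisons by edgeR or DESeq2, and 1 had an unadjusted p under 0.05, in abscopal over control tumors. Of all 10817 genes, 0% were called in each of these comparisons, with 344, 800 and 290 genes at an unadjusted p under 0.05 and 0 called by DESeq2.

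Set side by side in time, the treated CD45+ libraries were lower on day 7 than on day 3 for Ptgs1 (fold -2.01 ± 0.54), with no overlap, for Ptgs2os2 (-1.42 ± 0.32) and for Alox5 (-1.21 ± 0.47). In control tumors Ptgs2os2 went the other way, with a fold of 1.12 ± 0.34, and 9 of 10 day 7 libraries lay above every day 3 library. Ptger4 differed by -0.49 ± 0.15 in the same controls, with overlap. Across days, edgeR called 0 members in control, treated or abscopal CD45+ tumors, with 2, 3 and 2 at an unadjusted p under 0.05, and DESeq2 called 2 in treated tumors (Ptgs1 and Ptgs2os2), where it called 262 of 26975 genes. The share of all genes called was 0% in control (714 genes at an unadjusted p under 0.05, 1 by DESeq2), 0.101% in treated and 0.463% in abscopal tumors (204 of 27764 genes by DESeq2). The days come from separate tables, and a difference of sequencing run between them cannot be told apart from a difference of day.

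Markers of other cell types moved with the day 3 treated group, and their part in the members' levels was not tested. Neutrophil markers summed to 379.2 to 2819 CPM in control, 1375 to 27060 CPM in treated and 845.9 to 2906 CPM in abscopal libraries, and 5 of their 8 tested genes were called as higher in treated than in control tumors. The list of mast cell and basophil markers summed to 79.9 to 212.6, 435.9 to 1388 and 152 to 365.4 CPM. Nearly all of this was Hdc, which granulocytes other than mast cells also express. The mast cell genes Cma1, Cpa3, Tpsb2 and Mcpt4 had 76, 29, 24 and 9 counts over the 6 treated libraries, 28, 5, 5 and 0 over the 4 controls and 73, 25, 10 and 1 over the 7 abscopal libraries. Ms4a2 had 0 counts in treated and control libraries and 2 in abscopal libraries. T cell markers ran the other way, at 715.1 to 1231 CPM in control and 142.9 to 645.5 CPM in treated libraries, and monocyte and macrophage markers overlapped at 2194 to 2462 and 1136 to 2931 CPM. Platelet markers reached 1291 CPM in treated replicate 3, against 45.5 to 227.2 CPM in the other 5 treated libraries and 36.6 to 461.5 CPM in controls. Without that replicate the folds of Ptgs1, Ptgs2os2, Alox5 and Alox5ap over control were 3.06 ± 0.56, 1.996 ± 0.33, 2.14 ± 0.46 and 0.59 ± 0.18, again as a description of values that chose the members.

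Across the 34 CD45+ libraries, after removal of the group means, members of the 2 branches varied with different genes. These correlations (Pearson's r of log2 CPM with a prior count of 2, over libraries that share their tables and differ in depth) describe the libraries and carry no test. Of 10055 other genes with a mean of at least 5 CPM, those most like Ptgs2 were Il1a (r = 0.89), which encodes interleukin-1 alpha, Cxcl2 (0.89), a neutrophil chemokine gene, and Cd9 (0.86), a tetraspanin gene. Those most like Ptgs2os2 were Ccl3 (0.83), a chemokine gene, Hcar2 (0.82), a receptor gene, and Acod1 (0.82), which encodes the enzyme that makes itaconate. The 2 neighbors correlated with each other at 0.60 only. Ptgs2 also varied with the dissociation and immediate early genes (r = 0.66), a list of genes that tissue digestion can induce, with platelet markers (0.61), the mast cell and basophil list (0.52) and neutrophil markers (0.51), and against T cell markers (-0.51). Ptgs2os2 varied with the mast cell and basophil list (0.74) and with neutrophil markers (0.54), and Ptger4 ran against the same lists (-0.64 and -0.70). Hdc made up nearly all of the mast cell and basophil list. Correlations with that list therefore do not tell mast cells from other granulocytes. Alox5 and Alox5ap, of the other branch, shared lists with Ptgs2. Their r was 0.35 and 0.47 with platelet markers, 0.30 and 0.40 with neutrophil markers and -0.48 and -0.58 with T cell markers. The part of digestion and of these cell types in the members' levels was not tested.

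Alox5 was most like its own partner Alox5ap (r = 0.74, Spearman's rho 0.76), followed by Slc66a2 (0.73) and B4galt6 (0.73). Without the 2 libraries farthest from the median of Alox5, r with Alox5ap was 0.68. Alox5ap itself was most like Gpx1 (0.77), which encodes an antioxidant enzyme, Chmp3 (0.75) and Trf (0.75), the transferrin gene. Ptger4 was close to Tent5c (0.79) and Slamf8 (0.78). It ran against Ptgs2os2 (r = -0.50). Ptger2, on 2 to 37 counts per library, reached 0.64 with Gtf2h1, 0.64 with Gphn and 0.63 with Slc14a1, and nothing is read from correlations on such counts.

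Most members stood far apart between the sorted fractions, while Ptgs1 and Ptges overlapped in 5 of the 6 pairs of groups. All 8 members had a higher mean over the 34 CD45+ than over the 36 CD45- libraries, at 714.2 and 0.644 CPM for Alox5ap, 395.6 and 2.10 CPM for Ptgs2 and 151.5 and 0.555 CPM for Ptger4. Alox5 and Ptger2 had 3 counts each over all 36 CD45- libraries, and Ptgs2os2 had 9. The comparison was fitted within each of the 6 pairs of groups, and every member that passed the filter was called as higher in CD45+ cells. The members passed it through their CD45+ libraries, so folds are given as sizes without p. A member that passed only because it is high in CD45+ cells had to differ, so the counts of 4, 6 and 4 of 4, 6 and 4 tested on day 3 (control, treated, abscopal) and 4, 5 and 4 of 4, 5 and 4 on day 7 are no measure of the members. Of all genes tested, 35.8%, 37.9% and 39% were called as higher in CD45+ cells on day 3 and 41%, 33.6% and 33.8% on day 7.

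**Figure D4:**
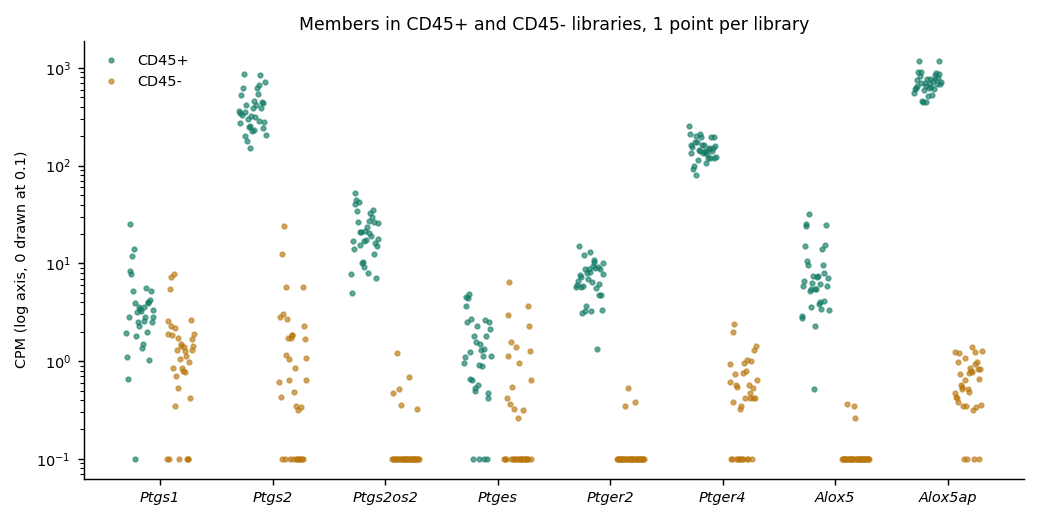
CPM of each member in the 34 CD45+ and 36 CD45- libraries, 1 point per library, on a log axis with values of 0 drawn at 0.1. The clouds are far apart for Alox5ap, Ptgs2 and Ptger4, and they meet for Ptgs1 and Ptges.

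Alox5ap gave folds between 9.98 ± 0.17 (day 7 control) and 10.65 ± 0.29 (day 3 treated), with every CD45+ library above every CD45- library in each of the 6 pairs. Ptger4 gave folds between 7.43 ± 0.29 (day 7 abscopal) and 10.22 ± 0.29 (day 3 abscopal), also without overlap. Ptgs2 gave its lowest fold in day 3 treated tumors (6.57 ± 0.68) and its highest in day 7 controls (10.93 ± 0.34). Its fractions did not overlap either. That highest fold rests on 6 summed CD45- counts, with a ratio over summed counts of 2201 (exact interval 1011 to 5998). The highest Ptger4 fold rests on 2 CD45- counts (ratio 1492, interval 413 to 12328). For the highest Alox5ap fold there were 12 (ratio 1269, interval 726 to 2457). These intervals overlap, so the 3 genes are not ranked by fold. The difference between the Ptgs2 folds of day 3 treated tumors and day 7 controls was not tested.

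Ptgs1 was the exception in size. Over summed counts its level in CD45+ cells was 1.49 times that in CD45- cells in day 3 controls (95% exact interval 0.59 to 3.85) and 3.40 times in day 3 treated tumors (2.47 to 4.72). These intervals cover counting error only, since summed counts leave out the spread between libraries. It passed the filter in the day 3 treated pair alone, with a fold of 2.15 ± 0.46, and 5 of 6 CD45+ libraries lay above every CD45- library. For Ptges the ratio was 23.6 in day 3 controls (3.75 to 980, on 19 and 1 summed counts), 10.2 in day 7 controls (3.06 to 53.6) and 2.96 in day 3 abscopal tumors (1.05 to 9.51). It was 1.58 in day 3 treated tumors (0.892 to 2.78, on 25 and 30 counts), 1.04 in day 7 treated tumors (0.288 to 3.60) and 1.27 in day 7 abscopal tumors (0.443 to 3.46), where the intervals hold 1. For Alox5 the CD45- libraries of day 3 controls had 0 counts, and against a floor of 3 counts over the group the CD45+ level was at least 13.6-fold higher.

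Within CD45- cells no member passed the filter on low counts in either table, so the main fits of treatment groups tested 0 members and values are given. Calls made without the filter are in the closing section. In the 7 treated libraries of day 3, replicates 1 to 7, Ptgs2 had 25, 8, 60, 0, 4, 11 and 5 counts and Ptges had 6, 3, 16, 1, 0, 3 and 1. Ptgs1 had 11, 6, 18, 5, 3, 15 and 4 counts in the same order. The 4 controls had 1, 6, 1 and 0 counts of Ptgs2, 0, 0, 0 and 1 of Ptges and 0, 4, 6 and 0 of Ptgs1. Treated replicates 1, 3 and 6 had the highest counts of Ptgs2 and Ptgs1, and for Ptges replicates 3 and 1 were followed by 2 and 6 at 3 counts each. On day 7, treated replicate 3 had 11 counts of Ptgs2 and 7 of Ptges, while treated replicates 1 and 2 had 0 of both. The 4 abscopal libraries of day 7 had 7, 4, 3 and 1 counts of Ptgs2 and 7, 3, 0 and 1 of Ptges, against 0 to 2 counts of either gene in the 11 controls. On day 3 the 7 abscopal libraries had 0 to 7 counts of Ptgs2 and 0 to 4 of Ptges.

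Among the treated libraries, those high in Ptgs2 also had the most fibroblast markers. Col1a1, Col1a2, Col3a1, Dcn, Lum and Pdgfra summed to 5803, 2057, 13338, 56.3, 246, 2583 and 1074 CPM in day 3 treated replicates 1 to 7, and to 292.5, 1047, 82.7 and 17.1 CPM in controls. On day 7 the sum was 201.8, 85.3 and 4029 CPM in treated replicates 1 to 3. Over the 36 CD45- libraries, after removal of the group means, the sum correlated with Ptgs2 at r = 0.76 (rho 0.64), with Ptges at 0.69 (rho 0.59) and with Ptgs1 at 0.63 (rho 0.61), on counts mostly under 10. The keratinocyte list, which summed to at most 4.39 CPM in any CD45- library, correlated with Ptges at 0.73, with Ptgs2 at 0.68 and with Ptgs1 at 0.55, and the endothelial list with Ptgs2 at 0.54. Immune markers were low in the same libraries: in day 3 treated tumors, neutrophil markers summed to at most 6.43 CPM and monocyte and macrophage markers to at most 11.99 CPM. The neutrophil list correlated with Ptgs2 at 0.39, with Ptges at 0.42 and with Ptgs1 at 0.39. The monocyte and macrophage list gave 0.27, 0.37 and 0.10 in the same order. The part of any of these cell types in the members' values was not tested.

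**Figure D5:**
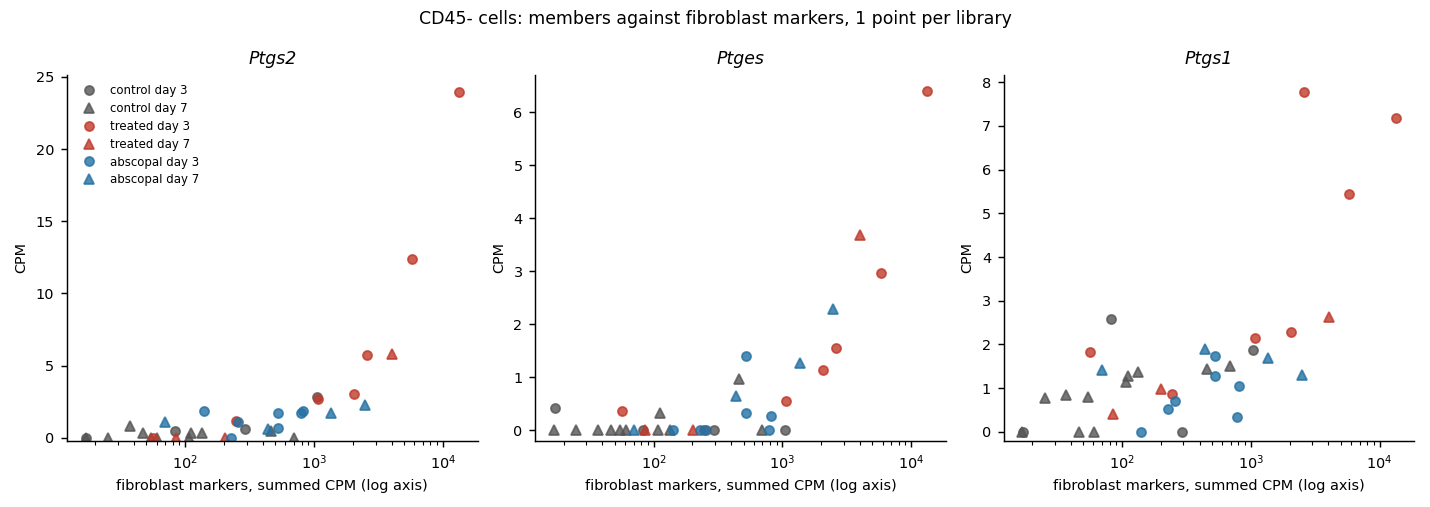
CPM of Ptgs2, Ptges and Ptgs1 against the summed CPM of 6 fibroblast markers (log axis) in the 36 CD45- libraries, 1 point per library, colored by group, with circles for day 3 and triangles for day 7. The day 3 treated library with 13338 CPM of fibroblast markers has the highest Ptgs2 and Ptges levels.

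Of 52 other genes of the pathway, listed by role and not by how they moved, all were in the tables and 21 passed the filter in CD45+ cells on day 3. In treated tumors 2 of the 21 were called over control, both higher, beside the 7.8% of all genes. Fpr2, which encodes a receptor for lipoxin and formyl peptides, averaged 185.7 ± 119.1 CPM over the 6 treated libraries (SD) and 50.04 ± 19.3 CPM over the 4 controls, with a fold of 2.20 ± 0.44 (edgeR, adjusted p = 0.00502). Alox15, the 12/15-lipoxygenase gene, averaged 19.2 ± 15.6 and 2.34 ± 1.46 CPM (SD), with a fold of 3.10 ± 0.83 (edgeR, adjusted p = 0.0249). Both lie in the role group of other lipoxygenases and the lipoxin receptor, of whose 7 genes 2 were tested. Fpr2 was called in all 17 fits that each left out 1 library, and Alox15 in 12 of 17. Neutrophil and T cell markers also differed between these libraries, as given above. Their part in the levels of the pathway genes was not tested.

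Over abscopal tumors 5 of the 21 were called on day 3, all higher in treated tumors, beside 5.44% of all genes. They were Fpr2 (1.90 ± 0.36, adjusted p = 0.0029), Alox15 (2.06 ± 0.60, adjusted p = 0.0492), Dpep2 (1.38 ± 0.39, adjusted p = 0.0384), a dipeptidase gene of leukotriene breakdown, Ltb4r1 (0.93 ± 0.25, adjusted p = 0.0333), the leukotriene B4 receptor gene, and Tbxas1 (0.55 ± 0.16, adjusted p = 0.0417), the thromboxane synthase gene. Of the 17 fits that each left out 1 library, Fpr2 was called in 17, Ltb4r1 in 11, Dpep2 in 10, Tbxas1 in 4 and Alox15 in 3. DESeq2 called the others but not Alox15 (DESeq2, adjusted p = 0.0978). With a replicate block 2 stayed called, Fpr2 and Alox15. Scaled by library totals alone, 1 stayed called, Fpr2. Between abscopal and control tumors of day 3 and among the groups of day 7, edgeR and DESeq2 called 0, with between 1 and 4 genes at an unadjusted p under 0.05.

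Where no member of a role group was called, the RNA level of its most abundant gene is given. The activity of the step was not measured. In CD45+ cells the highest mean was 16.9 CPM for Pla2g4a, which encodes cytosolic phospholipase A2, among the genes of arachidonate release. Among the prostaglandin receptors other than the members it was 4.90 CPM for Ptgir, the prostacyclin receptor gene, and among the genes of transport and inactivation it was 26.8 CPM for Ptgr1. In CD45- cells the corresponding genes were Pla2g12a (45.1 CPM), Ptgds (1041 CPM), which encodes a prostaglandin D synthase, Ptgir (0.623 CPM), Abcc4 (20.7 CPM), Oxgr1 (1.09 CPM) and Alox8 (1.39 CPM). The receptor genes outside the members were thus all low in CD45- cells, and Ptgds was far above every member there.

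In CD45- cells 14 of the 52 passed the filter on day 3 and 17 on day 7. Dpep1, another dipeptidase gene that acts on leukotrienes, was called over control in treated tumors, with a mean of 14.5 ± 5.54 CPM over 7 treated libraries (SD), a mean of 2.67 ± 1.69 CPM over 4 controls and a fold of 2.37 ± 0.41 (edgeR, adjusted p = 0.0268). Of all genes 0.0916% were called in that comparison and 0.0733% as higher. The call was lost without any 1 of the 4 control libraries. In the other 5 comparisons of CD45- treatment groups 0 pathway genes were called by edgeR or DESeq2, with 1 to 4 at an unadjusted p under 0.05. The share of all genes called was 0.147% for treated against abscopal tumors on day 3 (16 genes), 0.291% for abscopal against control tumors on day 7 (32 genes), and 0% for the other 3, where 567 to 741 genes had an unadjusted p under 0.05 and DESeq2 called 13, 0 and 0. Across days, CD45- cells showed 0% in control and treated tumors (569 and 595 genes at an unadjusted p under 0.05, 1 and 11 by DESeq2) and 0.0185% in abscopal tumors. Of the members only Ptgs1 and Ptgs2 in treated tumors passed the filter there, with folds of -1.54 ± 0.77 and -2.04 ± 1.35 for day 7 over day 3, and neither was called. The fold of Ptgs2 rests on day 7 treated replicate 3, the only library of its group with a count.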

How the data were processed

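QuantSeq libraries (3′ end RNA sequencing) were made from sorted CD45+ and CD45- cells, 70 in all. By the submitters' processing notes and the methods, the authors trimmed reads with Trim Galore 0.5.0, aligned them to GRCm38 with STAR 2.6.0, collapsed molecular identifiers, counted reads per gene with featureCounts and deposited raw counts, 1 table per fraction and day. The strand setting is not given in the sources used here. A line without a name in both CD45+ tables, equal to 100% of each total, was left out. Of the columns, 0 had no sample. Lines that share a symbol (234 per table) were kept apart.

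Counts were tested with edgeR 4.0.16 in R 4.3.3 (TMM, filterByExpr with minimum count 10 and total 15, quasi-likelihood test, Benjamini-Hochberg adjustment over all genes tested), with the 3 groups of a table in 1 fit. Days and fractions were compared by fits of the groups concerned over 2 tables. SE was taken from the fold and its F statistic. On simulated data for treated over control CD45+ cells of day 3 (10243 genes), 89% of genes changed 4-fold and 33% of those changed 2-fold were recovered. Of the calls, 6.87% were false. The simulation gave every gene the same dispersion and every library the same mean profile. It thus checks the code and does not measure recovery in these libraries, which differ in cell content. Alternatives were DESeq2 1.42.0, no filter, library totals, a fit of the 2 groups, a replicate block and each library left out. Replicates of a group differed by more than sampling noise (smallest chi-square per degree of freedom 1.99 over 208 pairs). The 8 members and all lists were chosen with earlier results of these data known. Genes named besides members were pathway genes called in at least 1 of 12 comparisons of treatment groups, otherwise the gene with the highest mean CPM of each role group in each fraction, and the 3 genes most correlated with each member of at least 5 CPM. One of these genes is not reported here. Hdc, the fibroblast and mast cell genes and those named for alternatives alone were named after their values were seen. Prxl2b is the current symbol of Fam213b on the pathway list. Promoters were matched by symbol for 7 members. Figures used matplotlib 3.10.9.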

Additional observations from a re-analysis of the deposited data

Results flagged for a closer look

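Over the 8 members, 67 groups of 4 to 10 libraries had unequal values, and 10 of them held 1 library whose CPM lay far from the nearest other, by Dixon's 95% criterion. Chance flags about 1 in 20 groups of continuous, normal values. A group with 1 library above 0 and the rest at 0 is always flagged, so that rate does not hold for genes on few counts. In CD45+ cells, Ptgs2 reached 713 CPM in day 7 abscopal replicate 3, Alox5 reached 24.9 CPM in day 7 abscopal replicate 1, and Ptger2 reached 15.1 CPM in day 3 control replicate 4. In CD45- cells, the other 7 were libraries with 1 to 4 counts of a gene that was at or near 0 in the rest of the group. They were Ptgs2os2 in day 3 control replicate 2 (0.470 CPM), day 3 abscopal replicate 2 (0.352 CPM) and day 7 abscopal replicate 1 (0.325 CPM), Ptges in day 3 control replicate 4 (0.416 CPM) and day 3 abscopal replicate 5 (1.39 CPM), Alox5 in day 3 treated replicate 4 (0.366 CPM), and Alox5ap in day 3 control replicate 1 (1.23 CPM). For 0 members did all treated libraries lie on 1 side of the control mean and all abscopal libraries on the other side, or all libraries of a group change side between the days.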

How the results depend on the processing

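The levels rest on few counts for Ptgs1, Alox5, Ptger2 and Ptges, and the day 3 comparisons with control tumors rest on 4 libraries. Of the members' called folds, 0 changed sign under the alternatives run.

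For treated over control CD45+ cells of day 3, 3 or 4 members were called under every alternative, and for treated over abscopal cells 4 or 5. Without the filter on low counts, edgeR called 1 member (Ptgs2) in treated over control and 2 (Ptgs1 and Ptgs2) in treated over abscopal CD45- cells of day 3, where it called 312 and 451 of 28941 genes, and 1 (Ptgs2os2) between the days in CD45+ control tumors and 3 in CD45+ treated tumors (83 of 28596 and 584 of 26989 genes), where 0 had been called. DESeq2 called 2 members between the days in CD45+ treated tumors, and leaving out 1 library gave 0 to 2, with 2 without treated day 3 replicate 5. Between the fractions, more low genes entered the tests: DESeq2 and the fit without a filter called 7 and 7 members in day 3 controls, 7 and 8 in day 3 abscopal tumors and 8 and 8 in day 7 controls, in place of 4. Of all genes, DESeq2 called 8549 of 25745, 11550 of 29875 and 12904 of 31258 there, and the fit without a filter 9641 of 25750, 12964 of 29875 and 14477 of 31258.

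Of the other pathway genes in treated over control CD45+ cells of day 3, 2 became 4 with DESeq2, 7 without a filter, 6 with a replicate block, and 1 to 4 when a library was left out (1 without treated replicate 2 or control replicate 1, 3 or 4, and 4 without treated replicate 5). With library totals Lta4h was called besides the 2. Some genes gained were lower in treated tumors: Lta4h with library totals (-0.86), without a filter (-0.72) and with the block (-0.71), and Cysltr2 with the block (-0.95). For treated over abscopal cells, 5 became 8 without a filter, 1 with library totals, 2 with a replicate block, 1 with only the 2 groups, and 1 at the lowest when a library was left out (treated replicate 3 or abscopal replicate 6). In treated over control CD45- cells of day 3, 1 became 2 without a filter, 0 with only the 2 groups, and 0 when any 1 of the 4 control libraries was left out. Without a filter 1 was called where 0 had been in abscopal over control CD45+ cells of day 3, in both comparisons with control of CD45+ and of CD45- cells on day 7, and 2 in treated over abscopal CD45- cells of day 3. The cause of these changes was not tested.

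Equal replicate numbers showed no pairing: in 0 of 18 pairs of groups was the correlation of deviations above 0.1 for every shared number, with values from -0.37 to 0.45. The CD45+ and CD45- fractions had 6 and 7 libraries in day 3 treated tumors and 10 and 11 in day 7 controls. Equal numbers therefore need not mark the same tumor or mouse, and the check cannot show that libraries are unpaired. The replicate block used the same numbers and may join unrelated libraries. With the replicate block the counts of members called were 4 and 4 in treated over control and over abscopal CD45+ cells of day 3. No block was fitted between the days.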
